A study of Mus musculus with 20 samples.

Results

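Masp2, Zfp990, Eno1b, Gm4735, Cldn11, Rbm20 and Nnt were followed through every library of a mouse islet RNAseq series as genes proposed to differ between mouse lines. The line and the DNA of the mice were not measured. These 7 symbols were chosen by their counts in these same libraries, near 0 or shifted in some of them, so their own values are given as a description with no test. Nnt names a pair of gene models, which brings the list to 8 gene IDs of the 28632 in the count table.

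Islets came from mice 12 weeks old and were cultured for a day before total RNA was extracted, and each library was labelled as a separate sample. There were 6 Ctrl libraries, 4 from mice lacking Mfn1 in β-cells (β-Mfn1KO), 5 from mice lacking Mfn2 (β-Mfn2KO) and 5 from mice lacking both (β-Mfn1/2DKO). The knockouts carried floxed alleles of Mfn1 (exon 4), Mfn2 (exon 6) or both, deleted by Cre expressed from the Ins1 locus, which restricts the deletion to β-cells. The labels call every Ctrl library wild type, while the study's methods combine Ins1-Cre mice without floxed alleles and floxed mice without Cre, all on a C57BL/6N background. Which Ctrl mouse carried which allele is not given in the sources used here. Both sexes were present in every group. Totals ran from 12400687 to 20329064 counts per Ctrl library, from 15745680 to 16685381 in β-Mfn1KO, from 15110046 to 59533407 in β-Mfn2KO and from 65533388 to 122947313 in β-Mfn1/2DKO.

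Inbred mouse strains differ at a limited number of genes by deletions, duplications and copies of processed transcripts, and such a gene can be read as on or off in a whole library without any change in the cells studied. Stretches of DNA around a chosen allele are also inherited with it when lines are bred. Clusters of zinc finger genes are among the parts of the mouse genome that vary most between strains, and Nnt is the textbook case among C57BL/6 substrains, where the J substrain carries a deletion of several exons. DNA was not measured here, and whether any of this applies to these mice was not tested.

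The members fell into 3 patterns over the 20 libraries. Masp2, Zfp990, Eno1b and Gm4735 were low together in all 4 β-Mfn1KO libraries and in Ctrl replicate 1, and in no other library. Cldn11 was low in all 5 β-Mfn2KO libraries and in Ctrl replicates 2 and 4. Rbm20 and Nnt were on in every library, with Rbm20 higher in each β-Mfn1KO and β-Mfn2KO library than in any other, and Nnt scattered in all 4 groups. A library was called low here when it held under 20% of the gene's highest library, a limit chosen after the values were seen, and the low libraries were the same ones under TMM, DESeq2 and total-count scaling.

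**Figure D1:**
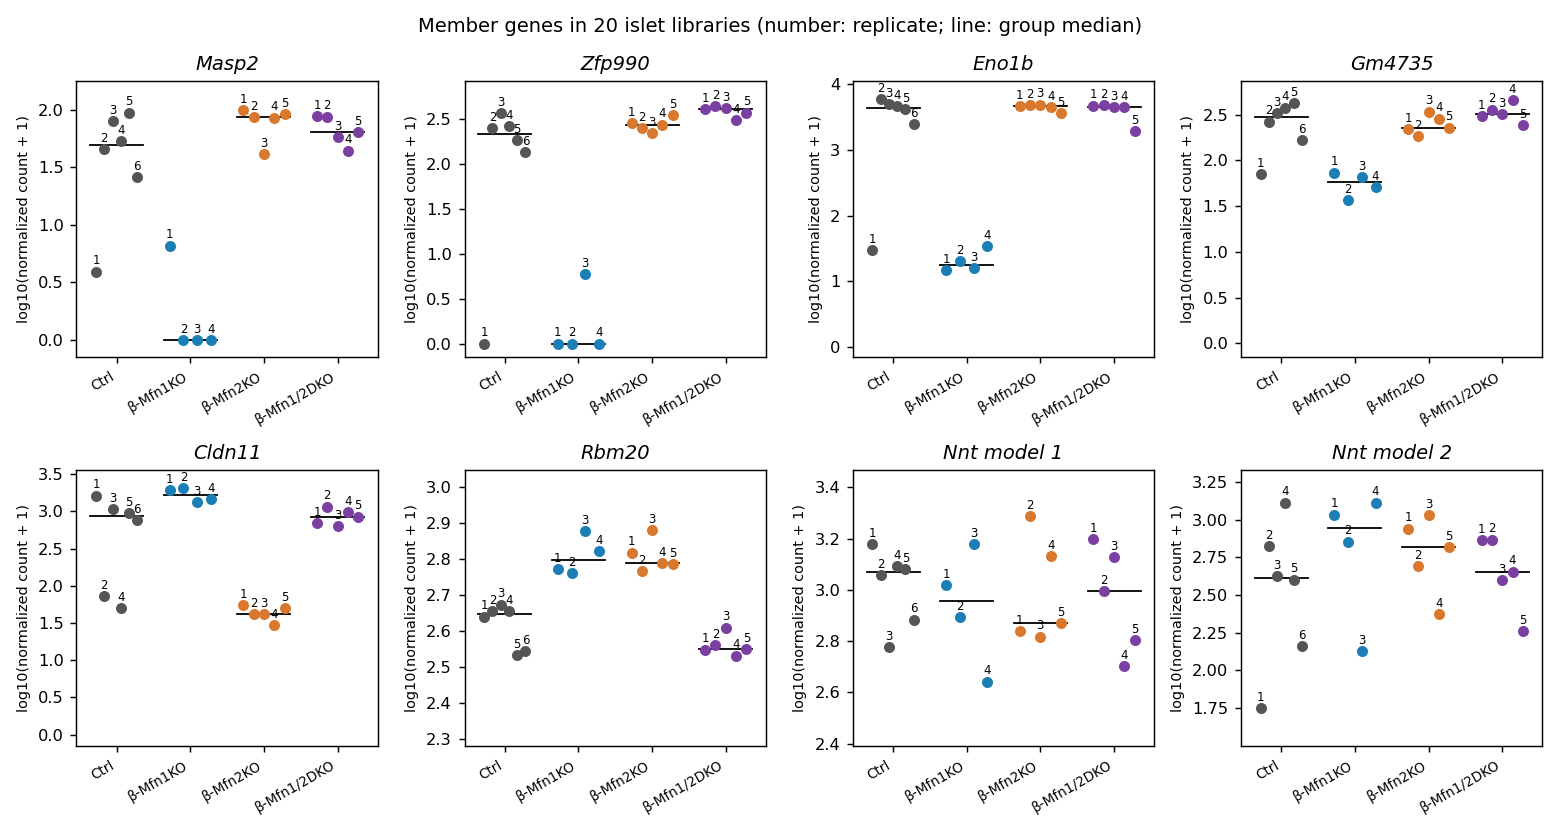
Normalized counts of the 8 gene IDs in each library, as log10 of the count + 1, by group (Ctrl n = 6, β-Mfn1KO n = 4, β-Mfn2KO n = 5, β-Mfn1/2DKO n = 5). Each point is a library with its replicate number and each line is a group median, and vertical scales differ between panels. Ctrl replicate 1 sits with β-Mfn1KO for Masp2, Zfp990, Eno1b and Gm4735, and Ctrl replicates 2 and 4 sit with β-Mfn2KO for Cldn11.

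Ctrl replicate 1 therefore stood apart from the other Ctrl libraries before any comparison, and Ctrl replicate 6 and β-Mfn1/2DKO replicate 5 were intermediate for some members. Ctrl replicate 4 was the shallowest, at 12400687 counts, and held 15 counts of Masp2, against 1 in Ctrl replicate 1, which had 14867765 counts in all. Ctrl replicate 6 had 12967823 counts and β-Mfn1/2DKO replicate 5 had 65533388, the fewest of its group. The part of depth in these levels was not tested. The targeted genes were lower than in every Ctrl library wherever the labels name them. Mfn1 ranged from 1518 to 1807 normalized counts in Ctrl and from 621.4 to 770.4 in β-Mfn1KO, and Mfn2 from 3089 to 4373 in Ctrl and from 1474 to 1688 in β-Mfn2KO. In β-Mfn1/2DKO Mfn1 ranged from 686.9 to 1062, highest in replicate 5, and Mfn2 from 2022 to 2131. Throughout, a normalized count is a count scaled by edgeR's TMM factors to the mean effective library size. The islet endocrine markers were detected in every library (7 of 7), with a summed level of 8072339 to 10942480 in Ctrl and 4869289 to 5703414 in β-Mfn1/2DKO.

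Markers of other cells were detected in every library and stood higher in some. The 5 immune markers summed to 21888 normalized counts in Ctrl replicate 6 and 30762 in β-Mfn2KO replicate 5, against 2674 to 8089 in the other 18 libraries, and none of the markers was at 0 in any library. The 6 stromal markers summed to 12396 and 13274 in the same pair of libraries, and were between 734.1 and 3964 in the others, with Lum alone at 0 in some library. Acinar markers, 9 of 9 detected throughout, summed to 2124042 in β-Mfn1/2DKO replicate 5. In bulk islets, fewer cells of a type and less RNA per cell cannot be told apart.

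Masp2 encodes a serine protease that starts the lectin pathway of complement and is made mainly in liver. Its annotated gene (ENSMUSG00000028979) lies at chr4:148602554-148615499 on the forward strand of GRCm38, and its start is 0.73 Mb from that of Mfn2. In Ctrl it ranged from 2.91 to 93.3 normalized counts with a median of 48.5, and the low end was replicate 1, with 1 read. The other 5 Ctrl libraries ranged from 24.9 to 93.3.

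In β-Mfn1KO, Masp2 stood at 5.58 normalized counts in replicate 1 and at 0 in replicates 2, 3 and 4. It stood at 98.7, 84.9, 40.4, 84.2 and 90.5 in β-Mfn2KO. In β-Mfn1/2DKO the values were 87.3, 86.2, 56.8, 43.1 and 62.9. All 4 β-Mfn1KO libraries were below every library of the 2 other knockout groups and, apart from Ctrl replicate 1, below every Ctrl library.

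The 4 β-Mfn1KO libraries held 2 reads of Masp2 in all, against 336 in β-Mfn2KO. Scaled to library size, the ratio of β-Mfn2KO to β-Mfn1KO was 62.3 (95% exact interval 17.1 to 516.4), and intervals and floors cover counting error only. Reads were pooled over the libraries of a group and Masp2 was chosen by these counts, so the interval is a description and no test. A library at 0 could hold up to 3 counts, which is 8.25 normalized counts in β-Mfn1KO replicate 2. Masp2 overlaps Tardbp, an RNA-binding protein gene on the opposite strand, over 51.4% of its stretches of 75 bases. Whether the counting used strand is not given in the sources used here, and Tardbp itself stood between 5894 and 7935 normalized counts in all 20 libraries, including those with no Masp2. Per kilobase of exon and per 1e6 counts, Masp2 was a low transcript, with a median of 0.412 over the libraries.

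Zfp990 (ENSMUSG00000078503, chr4:145510759-145539188, forward strand) belongs to a cluster of zinc finger genes, a family of DNA-binding proteins of which many repress transposable elements. Its start is 2.36 Mb from that of Mfn2, on the other side from Masp2. It ranged from 0 to 367.7 normalized counts in Ctrl with a median of 217.7, and the library at 0 was again replicate 1. The others ran upward from 137.0 in Ctrl replicate 6.

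In β-Mfn1KO, Zfp990 stood at 0, 0, 4.97 and 0 normalized counts. In β-Mfn2KO it stood at 287.7, 250.2, 223.4, 276.8 and 354.0. It reached 415.1, 442.1, 419.5, 308.4 and 375.7 in β-Mfn1/2DKO, the highest group. No β-Mfn1KO library came near any library of the 2 other knockout groups.

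With 2 reads of Zfp990 in the β-Mfn1KO libraries and 1198 in β-Mfn2KO, the scaled ratio was 222.1 (95% exact interval 61.3 to 1836). Reads were pooled as for Masp2 and Zfp990 was chosen by these counts, so this interval is no test either. Zfp990 shares at most 5.81% of its 75-base stretches with any other gene, the largest overlap being with Zfp987, so most of its sequence is its own. Zfp987 stayed between 0 and 2.91 normalized counts in every library.

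**Figure D2:**
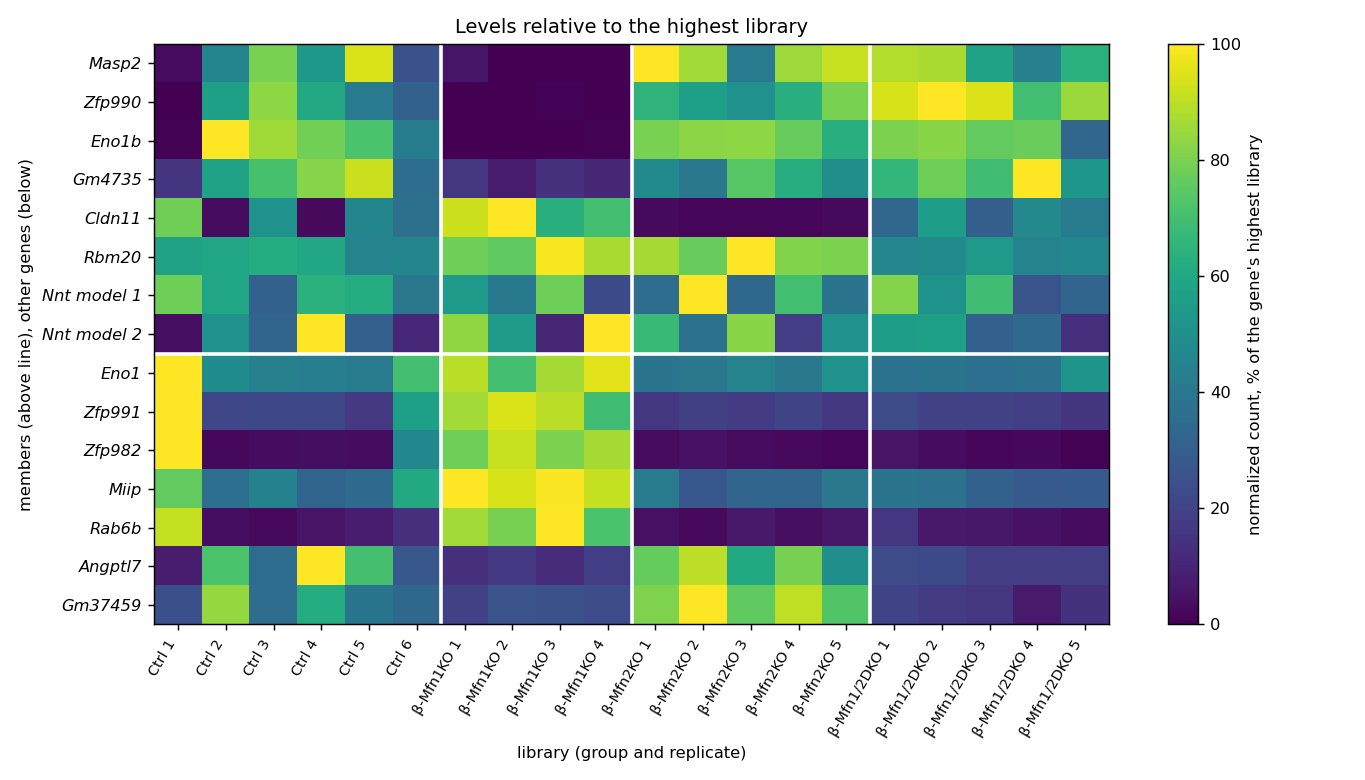
Level of each member (above the horizontal line) and of 7 other genes (below it) in the 20 libraries, each as a percentage of that gene's highest library. Columns are libraries by group and replicate and colour runs from 0 to 100%. Masp2, Zfp990, Eno1b and Gm4735 are dark where Eno1, Zfp991, Zfp982, Miip and Rab6b are bright, in Ctrl replicate 1 and the 4 β-Mfn1KO libraries, while Cldn11 is dark where Gm37459 is bright.

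Enolase is the glycolytic enzyme that makes phosphoenolpyruvate, and Eno1 encodes the form most cells use. Eno1 (chr4:150236721-150248879, forward strand) lies 2.36 Mb from Mfn2, like Masp2 and Zfp990 on chromosome 4. Gm4735 (ENSMUSG00000064193, chr2:80837141-80838442, forward strand) is annotated as a processed pseudogene, a copy of a spliced Eno1 transcript. Over 1064 aligned bases, transcripts Eno1-201 and Gm4735-201 were identical at 1059 (99.5%). Of the 75-base stretches of Gm4735, 75.2% also occur in Eno1 and 87.5% in Eno1b, the other member of the family.

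Because these loci are nearly identical over their aligned bases, 2 matched stretches are shown. The first pair comes from exon 4 of Eno1-201 and from Gm4735, and is identical in both. Reads were 151 bases long, longer than the stretch, so a read over it also covers bases beside it. The second pair overlaps the first and differs at the base in capitals. All are read 5′ to 3′ from the transcripts of GENCODE M21 on GRCm38.
Eno1 chr4:150246629-150246703: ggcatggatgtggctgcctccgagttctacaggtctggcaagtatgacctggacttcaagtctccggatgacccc
Gm4735 chr2:80837867-80837941: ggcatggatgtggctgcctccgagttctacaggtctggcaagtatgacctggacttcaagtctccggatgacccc
Eno1 chr4:150246575-150246649: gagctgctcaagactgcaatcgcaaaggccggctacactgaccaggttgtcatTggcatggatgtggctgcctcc
Gm4735 chr2:80837813-80837887: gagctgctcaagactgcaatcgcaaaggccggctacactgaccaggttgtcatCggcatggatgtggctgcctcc

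Gm4735 ranged from 69.8 to 422.6 normalized counts in Ctrl with a median of 294.8, and replicate 1 was again the lowest. It stood at 72.6, 35.7, 64.6 and 49.9 in β-Mfn1KO. In β-Mfn2KO the values were 217.2, 183.2, 339.2, 285.1 and 226.5. In β-Mfn1/2DKO they were 303.8, 358.2, 317.2, 458.5 and 241.1. Unlike Masp2 and Zfp990, Gm4735 was never at 0, and its low libraries kept reads that these near-identical loci could share.

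Eno1b (ENSMUSG00000059040) is annotated as a protein-coding gene at chr18:48045335-48048412 on the forward strand. Its transcript Eno1b-201 matched Eno1-201 at 1376 of 1385 aligned bases (99.4%). Eno1b stood at 29.1, 5821, 4990, 4592, 4182 and 2450 normalized counts in Ctrl replicates 1 to 6. In β-Mfn1KO it stood at 13.96, 19.2, 14.9 and 33.3. It was on in all 10 remaining libraries, at 4643, 4811, 4843, 4461 and 3646 in β-Mfn2KO and at 4683, 4788, 4433, 4502 and 1915 in β-Mfn1/2DKO.

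Eno1 moved the other way. It stood at 11676 normalized counts in Ctrl replicate 1, at 8172 in Ctrl replicate 6 and between 4815 and 5661 in the other 4 Ctrl libraries. It was between 8177 and 11141 in β-Mfn1KO, between 4494 and 5961 in β-Mfn2KO and between 4247 and 6063 in β-Mfn1/2DKO. Eno1 is not a member and was tested with the fit over all genes: it was lower in β-Mfn2KO than in β-Mfn1KO with a change on the log2 scale of -1.0 ± 0.20 (SE, adjusted p = 0.027, edgeR), with no overlap between the 4 and 5 libraries. Its difference between β-Mfn1KO and Ctrl was 0.57 ± 0.19 (SE, adjusted p = 0.57) with all 6 Ctrl libraries and 0.79 ± 0.14 (SE, adjusted p = 0.017) without Ctrl replicate 1. Ctrl replicate 1 was picked out by its values in these data and had the highest Eno1. Leaving it out thus widens this difference by the choice. As reads can be split between Eno1 and Eno1b by the counting, these tests are not independent of the member.

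Summed over Eno1, Eno1b and Gm4735, the groups overlapped. In Ctrl the sum of normalized counts was 10683 ± 951.9 (SD, n = 6), in β-Mfn1KO 10048 ± 1287 (SD, n = 4), and in β-Mfn2KO 9720 ± 418.7 (SD, n = 5), while β-Mfn1/2DKO stood at 9121 ± 557.4 (SD, n = 5). Ctrl replicate 1 had the highest sum of all, at 11775, with almost all of it assigned to Eno1.

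Eno1b took 0.247% of the summed counts in Ctrl replicate 1 (95% Wilson interval 0.134 to 0.454%) and 0.132 to 0.296% in β-Mfn1KO. It took 44.4 to 49.6% in Ctrl replicates 2 to 5 and 48.4 to 49.6% in β-Mfn1/2DKO replicates 1 to 4. Between these levels stood Ctrl replicate 6 at 22.7%, β-Mfn1/2DKO replicate 5 at 23.3% and β-Mfn2KO replicate 5 at 37.1%. The first and the last of these carried the immune and stromal markers given above, and the other the highest acinar markers. Their part in the share was not tested. The Wilson interval takes the estimated counts as observed and leaves out the uncertainty of dividing shared reads between the loci. Per kilobase of exon and per 1e6 counts, Eno1b had a median of 56.1 and Eno1 of 23.5. The length used for Eno1 joins all its annotated exons, 5379 bases, while Eno1-201 has 1902. A shorter length would raise the value of Eno1, so the order of these genes rests on this choice.

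**Figure D3:**
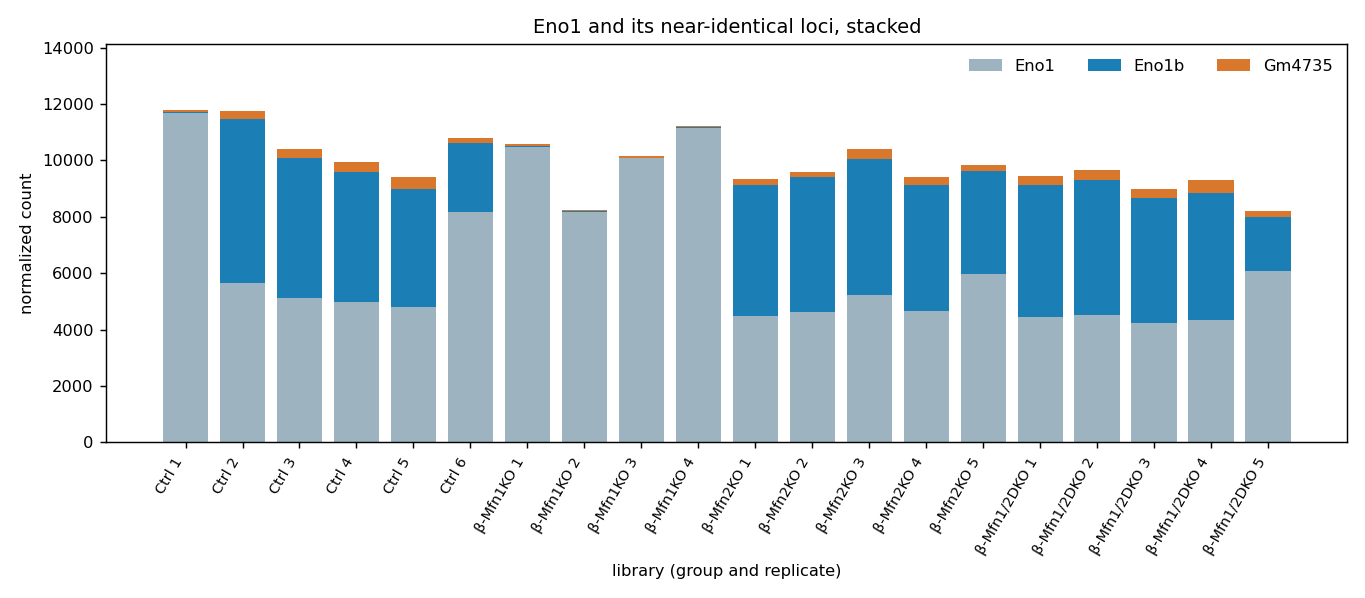
Normalized counts of Eno1, Eno1b and Gm4735 stacked in each of the 20 libraries, with the counts on the vertical axis and libraries by group and replicate on the horizontal. The total stays between 8218 and 11775, and Eno1b is nearly missing from Ctrl replicate 1 and from the 4 β-Mfn1KO libraries.

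Cldn11 encodes claudin 11, a tight junction protein best known from myelin and from the Sertoli cells of the testis. The gene (ENSMUSG00000037625, chr3:31149920-31164324, forward strand) starts 1.38 Mb from Mfn1. In Ctrl it ranged from 49.1 to 1634 normalized counts with a median of 860.9, the low libraries being replicate 2 at 71.9 and replicate 4 at 49.1. The other 4 Ctrl libraries ran upward from 765.8, and replicate 1 was the highest.

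In β-Mfn1KO, Cldn11 stood at 1929, 2084, 1324 and 1464 normalized counts. It stood at 53.6, 40.2, 40.4, 28.8 and 49.5 in β-Mfn2KO. In β-Mfn1/2DKO the values were 701.0, 1163, 632.2, 978.6 and 849.2, between the 2 other knockout groups and overlapping with neither. The log2 difference between β-Mfn2KO and β-Mfn1KO was -5.35, on means of 42.5 ± 9.61 and 1700 ± 364.0 (SD, n = 5 and 4). Markers of Schwann and neural cells, which can hold Cldn11, summed to between 3165 and 5877 normalized counts in all libraries, with Sox10, S100b and Cdh19 at 0 in some.

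Cldn11 and the 4 genes above were never low in the same library. The 4 genes were low with Cldn11 on in 5 libraries, 4 from β-Mfn1KO and 1 from Ctrl. Cldn11 was low with the 4 genes on in 7 libraries, 5 from β-Mfn2KO and 2 from Ctrl. All 5 were on in the remaining 8, which were Ctrl replicates 3, 5 and 6 and all 5 β-Mfn1/2DKO libraries. The Ctrl group thus held all 3 combinations, in 1, 2 and 3 libraries.

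Rbm20 encodes a splicing regulator of titin and other transcripts of heart muscle. It lies at chr19:53677306-53867080 on the forward strand (ENSMUSG00000043639), and its start is 1.41 Mb from Ins1, where the Cre of these mice sits. It ranged from 341.0 to 471.0 normalized counts in Ctrl with a median of 443.3. It stood at 591.8, 574.7, 752.5 and 662.5 in β-Mfn1KO and at 657.3, 583.0, 759.1, 615.7 and 609.6 in β-Mfn2KO. In β-Mfn1/2DKO it was at 352.7, 363.2, 406.4, 339.4 and 353.9.

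The lowest library of either single knockout was thus above the highest Ctrl library, and β-Mfn1/2DKO lay within or below the Ctrl range. The part of the Cre, of depth and of cell content in these levels was not tested. The log2 difference from Ctrl was 0.63 in β-Mfn1KO, 0.63 in β-Mfn2KO and -0.20 in β-Mfn1/2DKO, and these comparisons share the Ctrl libraries. Rbm20 is overlapped on the opposite strand by Gm16299, with a mean of 37.6 counts against 443.6 for Rbm20. Ctrl replicate 1 was unremarkable for Rbm20, at 436.1.

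Nnt encodes the proton-driven transhydrogenase of the inner mitochondrial membrane, which makes NADPH for the removal of peroxides. The table counts it under 2 IDs, as model 1 (ENSMUSG00000025453, chr13:119335448-119408997) and model 2 (ENSMUSG00000116207, chr13:119335528-119408952), both on the reverse strand. All 75-base stretches of model 2 occur in model 1, and 46.4% of those of model 1 occur in model 2. Reads within the shared stretches cannot be assigned to either model by sequence, and how the counting divided them was not tested. Summed, they stood at 909.0 to 2536 normalized counts in Ctrl with a median of 1582, and at 1573 ± 588.0 on average (SD, n = 6).

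In β-Mfn1KO the summed mean was 1751 ± 270.0 (SD, n = 4), in β-Mfn2KO it was 1741 ± 399.2 (SD, n = 5), β-Mfn1/2DKO stood at 1509 ± 617.6 (SD, n = 5), and all groups overlapped. The lowest library of the series held 816.8, so that Nnt, unlike the members above, was near 0 in no library and its inclusion as an on-off gene is not borne out by the gene sums. These are counts of whole genes, and a loss of some exons would not be seen in them.

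Model 2 alone was low in 5 libraries spread over all groups, which were Ctrl replicates 1 and 6, β-Mfn1KO replicate 3, β-Mfn2KO replicate 4 and β-Mfn1/2DKO replicate 5. Its share of Nnt counts ran from 3.53% in Ctrl replicate 1 (95% Wilson interval 2.27 to 5.45%) to 74.8% in β-Mfn1KO replicate 4 (71.3 to 78.0%). These intervals take the estimated counts as observed and leave out the uncertainty of dividing shared reads between the models. Model 1 ran from 438.0 to 1934 normalized counts. The spread within β-Mfn1KO, from 8.17 to 74.8%, was wider than that over the other 3 groups, from 3.53 to 62.0%.

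**Figure D4:**
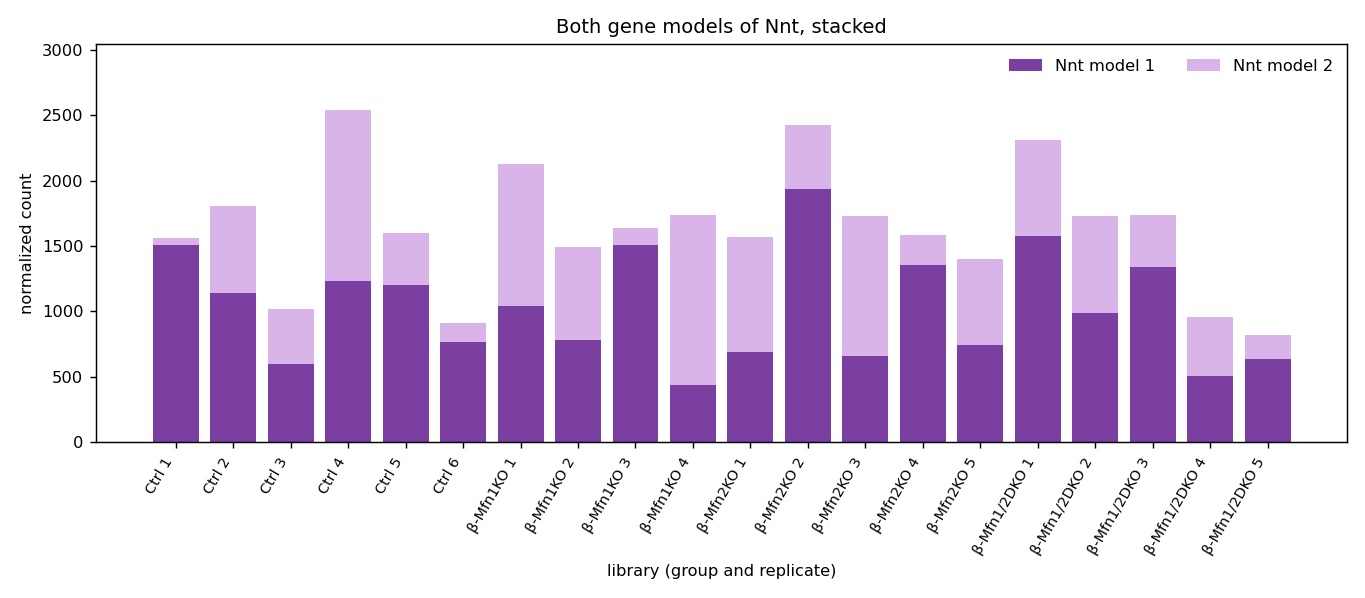
Normalized counts of both Nnt gene models stacked in each of the 20 libraries, with the counts on the vertical axis and libraries by group and replicate on the horizontal. The sum runs from 816.8 to 2536 and neither the sum nor the split follows the groups.

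Set against all genes, the members were prominent in the contrasts that chose them, and nothing is read from those counts. A call needed a fold change of more than 1.5 in either direction with an adjusted p below 0.05. Between β-Mfn1KO and Ctrl 7 of 28632 genes were called (0.0244%) and 5 of the 8 gene IDs were among them. Between β-Mfn2KO and Ctrl 15 were called (0.0524%), with 2 of the 8. Between β-Mfn1/2DKO and Ctrl 1491 were called (5.21%), with 0 of the 8. Between β-Mfn2KO and β-Mfn1KO 50 were called (0.175%), with 5 of the 8. In that last comparison the libraries of the 2 groups did not overlap for 5 of the 8, against 4.14% of all genes. At an unadjusted p under 0.05 edgeR had 2130 of the 28632 genes between β-Mfn1KO and Ctrl and 1208 between β-Mfn2KO and Ctrl. It had 7973 between β-Mfn1/2DKO and Ctrl and 3733 between β-Mfn2KO and β-Mfn1KO. Unadjusted counts of the lists below are to be read beside these.

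Around the limit for a low library, the highest low library of Masp2 held 5.58 normalized counts and its lowest other library, Ctrl replicate 6, held 24.9, which is 25.2% of the highest. The same pair of values was 72.6 and 165.0 for Gm4735, 33.3 and 1915 for Eno1b and 4.97 and 137.0 for Zfp990. It was 71.9 and 632.2 for Cldn11 and 234.3 and 398.0 for Nnt model 2.

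The 4 genes that were low together were each other's nearest matches among 13491 genes whose mean was 50 normalized counts or more. For each of them the 3 genes of highest Pearson r over the 20 libraries were the other 3, with r from 0.915 to 0.970. Opposite to them stood Vamp3, a vesicle fusion protein gene, with r of -0.958 to Masp2, and Zfp991, with -0.926 to Zfp990. The 4 genes were chosen by these same counts, and Eno1b and Gm4735 could share reads, so a high r among them was to be had by the choice. These r are a description over libraries that share groups and depth.

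Cldn11 was most like Slco2a1, a prostaglandin transporter gene, with r = 0.776, and most opposite to Angptl7, an angiopoietin-like gene, with r = -0.851. Usp13 and Arhgef16 followed Slco2a1, at 0.750 and 0.749. Rbm20 was most like Hacd3, Mfsd14a and Hnrnpk, at 0.798, 0.797 and 0.795. The summed Nnt counts were most like Enpp2, Camkk1 and Cdkn1b, at 0.802, 0.787 and 0.775. The r among the 4 genes were higher, but those are r between members chosen by these same counts.

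Masp2 and Zfp990 lie on either side of Mfn2, Cldn11 lies near Mfn1 and Rbm20 near Ins1, which raises the question of what other genes near these loci did. Genes with a start within 5 Mb were counted, leaving out the members and the named locus itself, and tested in the fit over all genes. Within 5 Mb of Mfn2 there were 176 such genes, and 9 (5.11%) were called between β-Mfn2KO and β-Mfn1KO, with 13 by DESeq2. Within 5 Mb of Mfn1 there were 107, of which 1 (0.935%) was called, also 1 by DESeq2. Within 5 Mb of Ins1 there were 65, of which edgeR called 0, with 6 at an unadjusted p under 0.05 and 0 by DESeq2. On chromosome 4 as a whole, members and Mfn2 included, 16 of 1579 genes were called (1.01%).

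The genes near Mfn2 moved both ways. Zfp991, a member of the same zinc finger cluster as Zfp990, stood at 677.4 normalized counts in Ctrl replicate 1, 386.0 in Ctrl replicate 6 and 113.7 to 147.3 in the other Ctrl libraries. It was between 468.5 and 637.9 in β-Mfn1KO and between 109.0 and 138.0 in β-Mfn2KO, a change on the log2 scale of -2.24 ± 0.36 (SE, adjusted p = 0.0056). Zfp982 showed the same order, at 93.0 in Ctrl replicate 1, 43.6 in Ctrl replicate 6 and 2.12 to 3.51 in the other Ctrl libraries. Its change was -4.97 ± 0.87 (SE, adjusted p = 0.0095), from 72.6 to 85.2 in β-Mfn1KO to 1.32 to 4.47 in β-Mfn2KO.

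Miip, a gene for a protein that restrains cell migration, starts 0.01 Mb from Mfn2. It was between 396.4 and 435.5 normalized counts in β-Mfn1KO, between 118.4 and 177.7 in β-Mfn2KO, and at 331.4 in Ctrl replicate 1 and 264.6 in Ctrl replicate 6 against 140.3 to 191.5 in the other Ctrl libraries. Its change between β-Mfn2KO and β-Mfn1KO was -1.47 ± 0.20 (SE, adjusted p = 0.00081). Camta1, a calmodulin-binding transcription activator gene, rose instead, by 0.82 ± 0.14 (SE, adjusted p = 0.0069).

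Angptl7, 0.62 Mb from Mfn2, was higher in β-Mfn2KO by 2.20 ± 0.42 (SE, adjusted p = 0.020). It was low in Ctrl replicate 1 at 223.9 normalized counts and in β-Mfn1KO at 365.1 to 535.0, and also in β-Mfn1/2DKO at 520.0 to 661.4. It was 1436 to 2591 in β-Mfn2KO. The remaining called genes near Mfn2 were Agtrap, Spsb1, Eno1 and Gm13238, all lower in β-Mfn2KO.

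**Figure D5:**
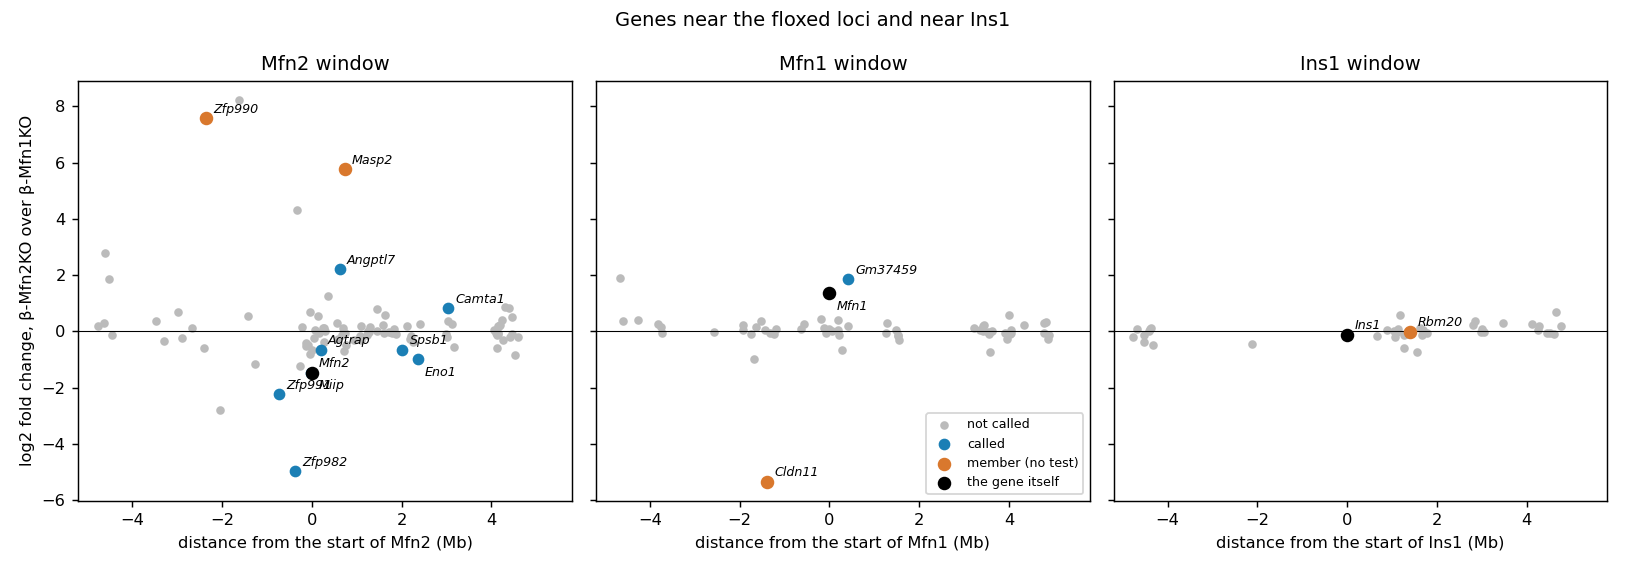
Log2 fold change of β-Mfn2KO over β-Mfn1KO (vertical axis) against distance in Mb from the start of Mfn2, Mfn1 or Ins1 (horizontal axis) for the 96, 59 and 41 genes whose mean was 10 normalized counts or more. Orange points are members, blue points are other called genes, grey points were not called and black points are the locus itself. Called genes other than members lie on both sides of 0 around Mfn2, with Gm37459 alone around Mfn1 and none around Ins1.

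Near Mfn1 the called gene was Gm37459, an unnamed transcript 0.41 Mb away, and its libraries mirrored those of Cldn11. It was between 354.6 and 486.9 normalized counts in β-Mfn2KO and at 410.4 and 301.7 in Ctrl replicates 2 and 4, against 119.2 to 189.4 in the other Ctrl libraries. In β-Mfn1KO it was between 94.9 and 123.7, a change on the log2 scale of 1.85 ± 0.30 (SE, adjusted p = 0.0060). It was 34.5 to 97.8 in β-Mfn1/2DKO, a group in which Cldn11 was on.

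Against Ctrl the neighbours gave fewer calls. Between β-Mfn1KO and Ctrl, edgeR called 0 of the 176 genes near Mfn2, with 42 at an unadjusted p under 0.05 and 1 by DESeq2. Without Ctrl replicate 1 it called 7, which were Zfp991, Zfp979, Zfp933, Miip and Eno1 on the higher side and Angptl7 and Camta1 on the lower. Ctrl replicate 1 was picked out by its values in these data, and it stood nearer to β-Mfn1KO for genes such as Zfp991, Miip and Eno1. Leaving it out thus widens the difference by the choice, and these 7 are a description. Between β-Mfn2KO and Ctrl edgeR called 0, with 13 at an unadjusted p under 0.05 and 0 by DESeq2. Near Mfn1 and Ins1 it called 0 in both comparisons, with 6 and 10 genes near Mfn1, 1 and 1 near Ins1 at an unadjusted p under 0.05, and 0 by DESeq2. Between β-Mfn1/2DKO and Ctrl 13 genes near Mfn2 (7.39%), 3 near Mfn1 (2.80%) and 5 near Ins1 (7.69%) were called, against 5.21% of all genes. Near Mfn2 these included Slc25a33, a mitochondrial carrier gene, higher by 1.55 ± 0.13 (SE, adjusted p = 5.6e-08), and Znf41-ps, Angptl7, Tnfrsf9, Gm572 and Zfp991, all lower. Near Mfn1 they were Slc2a2, the glucose transporter of β-cells, at -1.60 ± 0.15 (SE, adjusted p = 1.9e-07), Gm37459 and 1810062G17Rik, all lower. Near Ins1 they included Gsto1 and Gsto2, both higher, and AC137853.2, lower.

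The gene families of the members were read from lists chosen with earlier results of these data known. Of 16 other genes of the zinc finger cluster, Zfp991 and Zfp982 were called lower in β-Mfn2KO than in β-Mfn1KO, and the median log2 fold change of the list was -0.81 against 0.0394 for all genes. Its median between β-Mfn1KO and Ctrl was 1.0, with 0 called by edgeR, 8 at an unadjusted p under 0.05 and 0 by DESeq2. Many of the 16 genes had means of only 0.482 to 2.79 normalized counts, so both medians rest in part on genes near the floor. Zfp979 and Zfp985, picked after their values were seen, followed the same libraries, but not every gene of the list did. Zfp992 overlapped, at 99.8 to 176.0 normalized counts in β-Mfn1KO and 165.3 to 225.2 in β-Mfn2KO. Zfp979 was at 160.8 to 206.6 normalized counts in β-Mfn1KO and 218.1 in Ctrl replicate 1, and at 64.9 to 91.6 in β-Mfn2KO. Zfp985 was at 0 in Ctrl replicates 1 and 6, at 0 to 2.75 in β-Mfn1KO and at 2.82 to 26.8 in β-Mfn2KO. In Ctrl replicate 6, where Zfp990 stood at 137.0, a count of 0 allows up to 9.34 normalized counts. Whether Zfp985 was off in that library cannot be told. In β-Mfn1KO replicate 1 a count of 0 allows up to 8.37, above the 2.82 of the lowest β-Mfn2KO library. The low ends of these groups can therefore not be told apart for Zfp985. In β-Mfn1/2DKO against Ctrl 2 of the 16 were called, both lower, against 5.21% of all genes.

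In the lectin pathway, 0 of 10 other measured genes were called in either single knockout by edgeR or DESeq2, with 0 and 1 at an unadjusted p under 0.05. In β-Mfn1/2DKO against Ctrl, 2 of the 10 were called higher, against 5.21% of all genes. They were C2, a component of complement, by 0.62 on the log2 scale (adjusted p = 0.047, edgeR) and Serping1, an inhibitor of it, by 0.65 (adjusted p = 0.00073). C2 lost its call with a replicate block (adjusted p = 0.078) and with several single libraries left out, up to an adjusted p of 0.100. Beside these genes the 5 endothelial markers, none at 0, summed to 6645 to 10838 normalized counts in β-Mfn1/2DKO and 4508 to 6887 in Ctrl. The 6 stromal markers had a median sum of 2584 against 1480. Their part in these differences was not tested. Of 18 other claudins, 2 were called higher in β-Mfn1/2DKO than in Ctrl, Cldn4 and Cldn5, against 5.21% of all genes. In either single knockout against Ctrl 0 were called by either tool, with 1 and 2 at an unadjusted p under 0.05. Between β-Mfn2KO and β-Mfn1KO edgeR called 0 of the 18 and DESeq2 called 1, with 3 at an unadjusted p under 0.05. Cldn4, a claudin of epithelia, stood at 6577, 6614, 7001, 22463 and 42757 normalized counts in β-Mfn1/2DKO and between 5175 and 8051 in Ctrl. Its difference was 1.36 on the log2 scale (adjusted p = 0.013) and 0.68 (adjusted p = 0.13) without β-Mfn1/2DKO replicate 5. The pair of high libraries, replicates 4 and 5, also held the most acinar markers, at 830828 and 2124042 normalized counts, and their part was not tested. Cldn5, a claudin of endothelium, differed by 0.81 (adjusted p = 0.041), and lost its call in the fit to both groups (adjusted p = 0.10) and with single libraries left out (up to 0.12). Among 12 splicing targets of RBM20, 1 was called higher in β-Mfn1/2DKO than in Ctrl, against 5.21% of all genes. It was Ldb3, by 0.64 (adjusted p = 0.035), a call lost with a replicate block (adjusted p = 0.074) and with single libraries left out. In the single knockouts 0 were called by either tool, with 2 and 1 at an unadjusted p under 0.05.

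Of 16 genes of mitochondrial NADPH and peroxide handling, the setting in which Nnt works, edgeR called 0 in every comparison. At an unadjusted p under 0.05 there were 4 between β-Mfn1KO and Ctrl, 0 between β-Mfn2KO and Ctrl, 4 between β-Mfn1/2DKO and Ctrl and 3 between both single knockouts. DESeq2 called 1 between β-Mfn1/2DKO and Ctrl and 0 elsewhere. Among 4 other enolase genes, Eno1 alone was called, and only between β-Mfn2KO and β-Mfn1KO. Of 8 other genes reported to differ among C57BL/6 substrains, 0 were called in the single knockouts against Ctrl by edgeR or DESeq2, with 1 in each at an unadjusted p under 0.05. Between β-Mfn2KO and β-Mfn1KO edgeR called 0 of the 8 and DESeq2 called 1, with 3 at an unadjusted p under 0.05.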

How the data were processed

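The authors checked paired-end reads with FastQC 0.11.8, aligned them to GRCm38 with STAR 2.6.1b and assigned estimated counts to genes with RSEM 1.3.1. The authors deposited these expected counts as whole numbers, not normalized, after removing genes with no count anywhere. Another table, depth-normalized by the authors, was not used. Both Nnt IDs and all other genes were matched to GENCODE M21, and sequences came from its transcripts.

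All 28632 genes were fitted with edgeR 4.0.16 in R 4.3.3 (TMM, estimateDisp, glmQLFit, glmQLFTest), with 1 coefficient per group over all 20 libraries and Benjamini-Hochberg adjustment per comparison. The SE is the absolute log2 fold change over the root of the F statistic. P-values measure the spread between these samples. Members and lists were chosen with earlier results of these data known. By rule, the text names the members, Mfn1, Mfn2, Ins1, Eno1, genes sharing over 10% of a member's 75-base stretches, called genes of the lists, up to 6 called genes per window and comparison (largest change, mean of at least 50) and the 3 genes most like each member. Zfp933, Zfp979, Zfp985, Zfp987, Zfp992, Agtrap, Gm13238, Vamp3 and Rab6b were picked after their values were seen. Alternatives were DESeq2 1.42.0, its size factors, total-count scaling, filterByExpr, fits to the groups compared, sex or replicate number as covariates, windows of 2 and 10 Mb and leaving out each library. One call in a list is not reported here.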

Additional observations from a re-analysis of the deposited data

Results flagged for a closer look

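In groups of 4 to 6 libraries, 8 of 40 group and gene combinations had a highest or lowest library far from the rest by Dixon's criterion on log2(normalized count + 1). The members were chosen by such values, so this is a description. Below the rest of their groups were Zfp990 in Ctrl replicate 1 at 0 normalized counts and Eno1b in the same library at 29.1. Masp2 was low in β-Mfn2KO replicate 3 at 40.4. Eno1b was low in β-Mfn2KO replicate 5 at 3646 and in β-Mfn1/2DKO replicate 5 at 1915. Above the rest were Eno1 in β-Mfn1/2DKO replicate 5 at 6063, Masp2 in β-Mfn1KO replicate 1 at 5.58 and Zfp990 in β-Mfn1KO replicate 3 at 4.97. The last pair of values rests on 2 reads each in groups otherwise at 0.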

How the results depend on the processing

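No named gene called in a comparison changed sign where it was refitted. Among member differences on the log2 scale 10 did. With libraries left out, Cldn11 and Eno1b between β-Mfn1/2DKO and Ctrl (0.19 and 0.14) fell as low as -0.06 and -0.12, Gm4735 between β-Mfn2KO and Ctrl (-0.11) reached 0.06 and Rbm20 between β-Mfn2KO and β-Mfn1KO (-0.01) reached 0.08. The other 6 were of Nnt, such as model 2 between β-Mfn2KO and β-Mfn1KO (-0.30), which reached 0.04. Genes called between β-Mfn1KO and Ctrl (7) fell to 3 in the fit to both groups alone and ran from 3 to 21 when libraries were left out, with 21 without Ctrl replicate 1. Those between β-Mfn2KO and β-Mfn1KO (50) rose to 87 with a replicate block and 124 by DESeq2, and ran from 25 to 106 with libraries left out. Leaving out libraries gave 12 to 16 between β-Mfn2KO and Ctrl and 1161 to 1632 between β-Mfn1/2DKO and Ctrl. Near Mfn2 the 9 calls between β-Mfn2KO and β-Mfn1KO became 15 with filterByExpr, 15 with the replicate block, 14 in the fit to both groups and 5 within 2 Mb, and 4 to 18 with libraries left out (4 without β-Mfn1KO replicate 4, 5 without β-Mfn1KO replicate 1, 15 without Ctrl replicate 1 and 18 without β-Mfn1KO replicate 3). Near Mfn2 the 0 between β-Mfn1KO and Ctrl became 1 with the replicate block, 1 by DESeq2 and 0 to 7 with libraries left out. Near Mfn2 the 13 between β-Mfn1/2DKO and Ctrl became 8 with the replicate block, 5 within 2 Mb, 26 within 10 Mb and 9 to 17 with libraries left out. Near Mfn1 the 3 in that comparison became 5 with total-count scaling, 5 by DESeq2, 1 within 2 Mb, 5 within 10 Mb and 2 to 5 with libraries left out, and the 1 between β-Mfn2KO and β-Mfn1KO became 2 within 10 Mb and 1 to 2 with libraries left out. Near Ins1 the 5 became 8 with total-count scaling, 1 within 2 Mb, 18 within 10 Mb and 5 to 6 with libraries left out. The causes of these shifts were not tested. Replicate numbers were not used as pairs in the main fit. Same-numbered libraries had a mean r of 0.232 (lowest -0.114, 27 pairs) in their deviations from group means. Other numbers had -0.051 (0.164 within a sex, -0.200 between sexes), and 9 of 20 libraries correlated best with their own number. Whether the numbers mark pairs cannot be told from these values. Under the alternatives, 860 member differences moved by less than the spread between replicates and 4 by more, and tests of the other named genes lost their call in 91 cases, gained one in 25 and held it or its absence in 4420. A count of 0 allows up to 3 counts in a library. Intervals of the Eno1b and Nnt shares leave out the uncertainty of dividing shared reads, and so are too narrow as a measure of the split.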

Other observations

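Rab6b, which encodes a small GTPase of Golgi transport, lies on chromosome 9, away from the floxed loci and from Ins1, and was picked out after its values were seen. It stood at 1494 normalized counts in Ctrl replicate 1 and at 217.9 in Ctrl replicate 6, against 42.5 to 125.3 in the other Ctrl libraries. It was between 1175 and 1639 in β-Mfn1KO, between 44.7 and 110.4 in β-Mfn2KO and between 53.0 and 258.0 in β-Mfn1/2DKO. Its log2 fold change between β-Mfn2KO and β-Mfn1KO was -4.10 ± 0.74 (SE, adjusted p = 0.012, edgeR). Its Pearson r to Eno1b over the 20 libraries was -0.938. Vamp3, on chromosome 4, was at 3048 to 3878 in β-Mfn1KO, at 3076 in Ctrl replicate 1 and at 2043 to 2562 in all other libraries, and was lower in β-Mfn2KO than in β-Mfn1KO by -0.57 ± 0.08 (SE, adjusted p = 0.0012), a change under the fold limit.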
